A study of Bos taurus with 12 samples.

Results

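The genes described here were SREBF1, SREBF2, SCAP, INSIG1, ABCA1, MYLIP, NR1H2 and NR1H3, which set the response of a cell to sterols. They were taken by gene name, with their m6A peaks, and made up 8 of the 18436 genes in the expression table. All 8 passed the filter on low values (0.5 FPKM or more on average, where FPKM is the number of fragments scaled to exon length and library depth). The group was chosen by a reading of the GM and DM expression and of the m6A enrichment in these same samples, so those values are given as a description, without a test.

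Primary myoblasts had been taken from longissimus dorsi muscle of newborn Qinchuan cattle. Proliferating myoblasts (GM) were grown in DMEM/F12 with 20% fetal bovine serum. Myotubes (DM) were cultured for 4 days in DMEM/F12 with 2% horse serum, and both media held penicillin/streptomycin. With 3 cultures per condition there were 12 libraries, 6 called input (poly(A) RNA fragments) and 6 made of fragments immunoprecipitated (IP) with an antibody to N6-methyladenosine (m6A). The methods speak of 1 newborn animal, so the spread between cultures holds no variation between animals. GM was harvested at 80% confluence, and the conditions differed in serum and time in culture as well as in differentiation, so effects of these cannot be told apart.

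SREBP-1 and SREBP-2, the products of SREBF1 and SREBF2, are transcription factors made as membrane proteins of the endoplasmic reticulum. The escort protein SCAP carries them to the Golgi, where they are cut and released, and INSIG proteins hold SCAP back when sterols are plentiful. The liver X receptors LXR-alpha (NR1H3) and LXR-beta (NR1H2) are nuclear receptors that bind oxysterols and, with a retinoid X receptor as partner, switch on genes of cholesterol export such as ABCA1 and the ubiquitin ligase gene MYLIP.

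The 6 input libraries were of similar depth. From the steps between low FPKM values, their relative depths were 0.901 to 1.02 times that of GM culture 1. Libraries of a condition correlated at 0.995 to 0.997 across genes and libraries of different conditions at 0.981 to 0.983. Of 12302 genes tested, 603 were called higher in DM (4.9%) and 858 lower (6.97%), 11.9% in all, by limma on log2(FPKM + 1) with a fold change of more than 1.5 and p below 0.05 before adjustment. When each library was rescaled to the same FPKM total (TPM), the split became 970 higher and 792 lower, and the median log2 fold change of all tested genes moved from -0.05 to 0.06. Myotube markers were higher in DM, 6 of 8 being called, and their summed level went from 858 to 998 FPKM in GM up to 1710 to 1759 FPKM in DM. All 3 cycling markers fell, from a sum of 58.9 to 66.4 FPKM to 3.56 to 5.20 FPKM, and 3 of 4 myoblast markers fell. Fibroblast markers were abundant in both conditions, with sums of 16028 to 16183 FPKM in GM and 16867 to 17961 FPKM in DM, and 0 of 7 were called, although 3 were higher at p below 0.05 before adjustment in limma. In bulk RNA, fewer cells of a type and less RNA per cell cannot be told apart, and the part of these marker changes in the values below was not tested.

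SREBF2 was the member with the highest level in DM. Its FPKM in the GM cultures was 12.2, 12.1 and 11.5, and in the DM cultures 24.0, 26.3 and 23.9. Every DM culture stood above every GM culture by a wide margin. The mean was 11.9 ± 0.362 FPKM (SD, n = 3) in GM and 24.8 ± 1.38 FPKM (SD, n = 3) in DM, a ratio of 2.07. On the log2(FPKM + 1) scale the difference was 0.99 with a standard error of 0.0579, above that of 98.0% of all tested genes. SREBF2 (ENSBTAG00000014265) lies on chromosome 5 from 112832407 to 112890177 of ARS-UCD1.2, on the plus strand.

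SREBF1 (ENSBTAG00000007884), on chromosome 19 from 34633133 to 34649213 (plus strand), had no such step. It was at 4.90, 4.97 and 4.80 FPKM in GM and at 4.86, 4.76 and 3.77 FPKM in DM. The third DM culture was low, while the other DM cultures lay at the level of GM, so the conditions overlapped. The log2(FPKM + 1) difference was -0.11 with a standard error of 0.0879, and without the third DM culture it was -0.02. The gene encloses the microRNA gene bta-mir-33b, which was listed at a mean of 0.0769 FPKM. Libraries of poly(A) RNA fragments do not measure the mature microRNA, so its level is not known from this value.

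Within each library, SREBF2 was therefore set against SREBF1. The ratio of the FPKM values was 2.50, 2.43 and 2.41 in the GM cultures and 4.95, 5.53 and 6.34 in the DM cultures. SREBF2 was the more abundant of the 2 in every library, and the lowest DM ratio was well above the highest GM ratio.

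SCAP, the escort of both factors, was close to level. It measured 10.7, 11.7 and 12.3 FPKM in GM and 9.72, 11.3 and 10.2 FPKM in DM. The conditions overlapped, and the log2(FPKM + 1) difference was -0.14 with a standard error of 0.0743. SCAP (ENSBTAG00000015782) spans chromosome 22 from 52163455 to 52264116 (plus strand), where its last 616 bases overlap PTPN23 on the minus strand. PTPN23 had a mean level of 9.08 FPKM, and since it was not stated whether counting used strand, reads of this overlap may be shared, although the libraries were made strand-specific.

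INSIG1, which anchors SCAP in the endoplasmic reticulum and is itself a target gene of SREBP, was low in GM at 2.07, 2.53 and 2.19 FPKM. In DM it stood at 5.52, 5.06 and 4.51 FPKM, with no overlap between conditions. The mean went from 2.26 ± 0.237 to 5.03 ± 0.505 FPKM (SD, n = 3 in each), a ratio of 2.22. The log2(FPKM + 1) difference was 0.89 with a standard error of 0.0875, above 97.5% of tested genes. INSIG1 (ENSBTAG00000001592) lies on chromosome 4 from 117125786 to 117138560 (plus strand).

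The ratio of INSIG1 to SCAP within a library was 0.193, 0.216 and 0.179 in GM and 0.568, 0.447 and 0.444 in DM. INSIG1 was thus the rarer transcript in every library, and less so in DM. The related anchor INSIG2 did not follow INSIG1. INSIG2 stood at 20.8 ± 1.51 FPKM in GM and 20.7 ± 1.95 FPKM in DM (SD, n = 3 in each), so that it exceeded INSIG1 by 8.60 to 10.4 times in GM and by 3.68 to 4.99 times in DM.

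**Figure D1:**
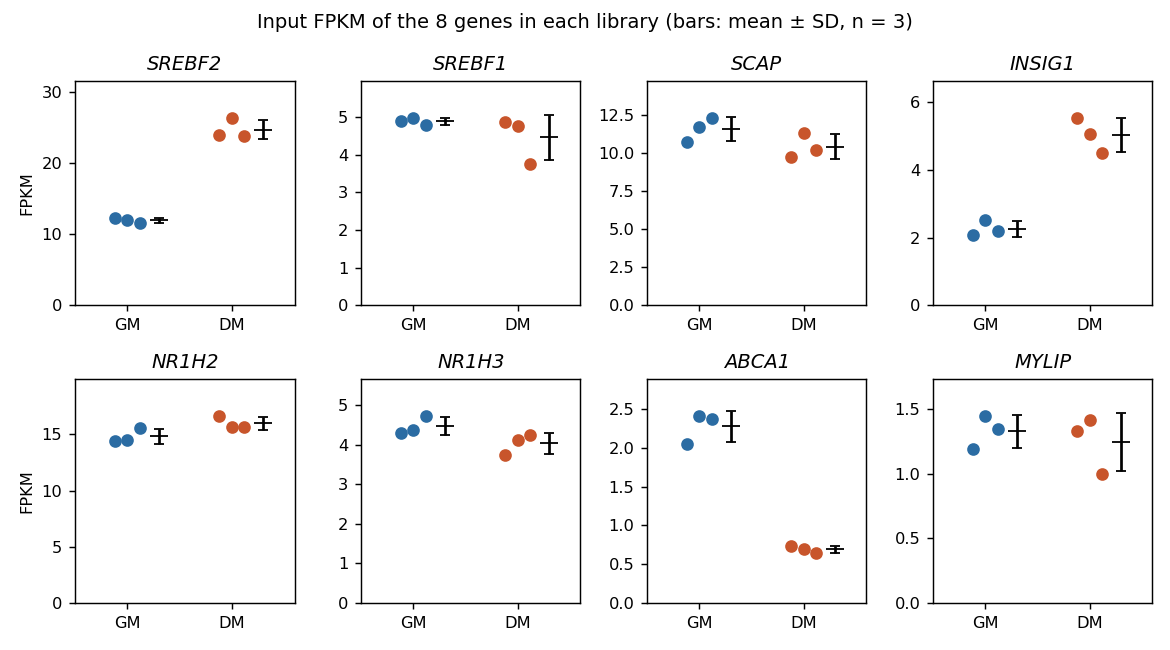
FPKM (vertical axes, from 0) of the 8 genes in the 3 GM (blue) and 3 DM (orange) input libraries, with the mean ± SD in black. SREBF2 and INSIG1 lie higher and ABCA1 lower in all 3 DM cultures, while SREBF1, SCAP and MYLIP overlap between conditions.

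**Figure D2:**
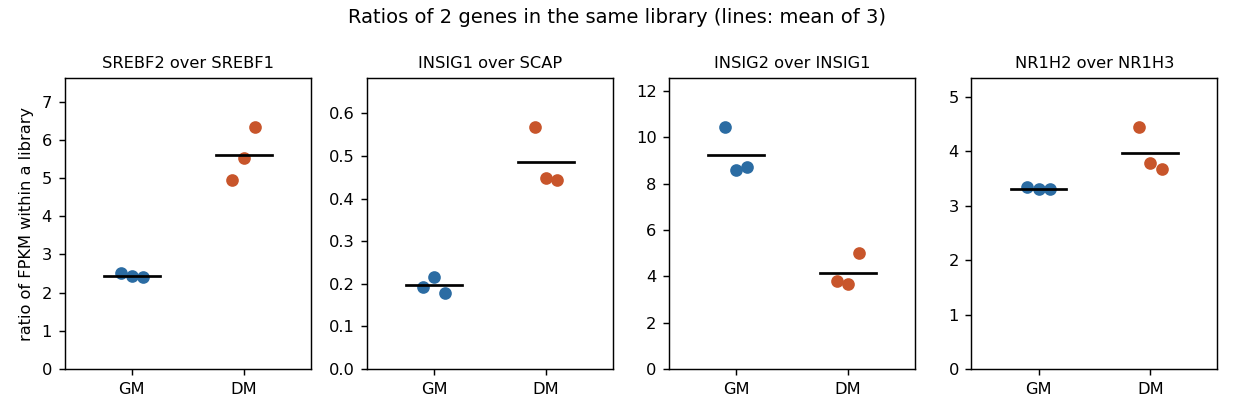
Ratio of the FPKM values of 2 genes in the same library (vertical axes, from 0) for each GM (blue) and DM (orange) culture, with the mean as a black line. SREBF2 over SREBF1 goes from a mean of 2.44 in GM to 5.61 in DM, and INSIG2 over INSIG1 from 9.25 to 4.15.

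Of the receptors, NR1H2 was the more abundant in every library. NR1H2 (ENSBTAG00000003264, chromosome 18 from 56540703 to 56547718, plus strand) measured 14.4, 14.5 and 15.6 FPKM in GM and 16.6, 15.6 and 15.6 FPKM in DM. The conditions came close to touching, with the highest GM culture at 15.60 FPKM and the lowest DM culture at 15.63 FPKM. The log2(FPKM + 1) difference was 0.10 with a standard error of 0.0565.

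NR1H3 (ENSBTAG00000010681, chromosome 15 from 77125341 to 77139490, plus strand) was at 4.30, 4.38 and 4.72 FPKM in GM and at 3.73, 4.13 and 4.25 FPKM in DM. All DM cultures lay just below all GM cultures, and the log2(FPKM + 1) difference was -0.12 with a standard error of 0.0693. Its first 427 bases overlap ACP2 on the minus strand, which had a mean of 6.06 FPKM. The ratio of NR1H2 to NR1H3 was 3.34, 3.31 and 3.30 in GM and 4.45, 3.78 and 3.68 in DM, without overlap.

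ABCA1, the exporter that passes cholesterol to lipid-poor apolipoproteins, was lower in DM. It measured 2.05, 2.41 and 2.37 FPKM in GM and 0.730, 0.701 and 0.643 FPKM in DM. The DM cultures lay close together and far below every GM culture. The mean went from 2.28 ± 0.198 to 0.691 ± 0.0441 FPKM (SD, n = 3 in each), which is 3.29-fold lower. The log2(FPKM + 1) difference was -0.95 with a standard error of 0.0782, and the pseudocount makes it smaller than the log2 ratio of the means, -1.72. ABCA1 (ENSBTAG00000020661) lies on chromosome 8 from 94603862 to 94719841 (minus strand). Beside this, the macrophage marker list summed to 1.34 to 1.96 FPKM in GM and 1.15 to 2.12 FPKM in DM, and its part in the ABCA1 values was not tested. CD68 made up most of that sum, at means of 1.17 FPKM in GM and 1.47 FPKM in DM, and was the single gene of 7 that passed the filter. CD14 was at 0.245 and 0.0928 FPKM, CSF1R at 0.0321 and 0.0105 FPKM, and CD163 at 0.0216 and 0.0694 FPKM in GM and DM. Adipocyte markers summed to 2.27 to 2.48 FPKM in GM and 1.73 to 2.29 FPKM in DM, and their directions differed. Of the 2 tested, PPARG was called lower, and PLIN1 was uncalled at 0.870 FPKM in GM and 0.985 FPKM in DM. Below the filter, FABP4 was at 0.106 FPKM in GM and 0.578 FPKM in DM. ADIPOQ was at 0.153 and 0.0109 FPKM, and LEP at 0.0261 and 0.0126 FPKM. The 3 endothelial markers were below the filter, with sums of 0.293 to 0.399 FPKM in GM and 0.323 to 0.444 FPKM in DM.

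MYLIP, whose product marks lipoprotein receptors for degradation, did not move with ABCA1. It was at 1.19, 1.45 and 1.35 FPKM in GM and at 1.33, 1.42 and 0.996 FPKM in DM. The third DM culture was the lowest of all and the others fell within the GM range. The log2(FPKM + 1) difference was -0.05 with a standard error of 0.0965, and it turned to 0.02 with TPM scaling and to 0.03 without the third DM culture. MYLIP (ENSBTAG00000004115) lies on chromosome 23 from 40992084 to 41012741 (minus strand).

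Counted together, 2 members (SREBF2 and INSIG1) were called higher and 1 (ABCA1) lower, beside 4.9% and 6.97% of all tested genes, and 5 of 8 had conditions that did not overlap, beside 54.1% of all tested genes. Since this contrast was known when the members were chosen, nothing is read from these counts. The other 5 members had fold changes under the threshold.

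The order of the members changed at both ends. In GM the levels fell from NR1H2 through SREBF2, SCAP, SREBF1, NR1H3, ABCA1 and INSIG1 to MYLIP. SREBF2 and SCAP overlapped in their libraries, as did ABCA1 and INSIG1, and the other neighbours were separate. In DM SREBF2 came first, before NR1H2 and SCAP, then INSIG1, SREBF1 and NR1H3, each overlapping with the next, then MYLIP and last ABCA1. ABCA1 in DM stood above only 4.72% of tested genes, against 19.4% in GM, while SREBF2 went from above 61.2% to above 79.8%.

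Genes that act with or under these regulators were read from 6 lists. Over all tested genes 11.9% were called and 50.7% had p below 0.05 before adjustment, and the share of each list is given beside its counts. Of 14 genes of SREBP processing and turnover, 12 were tested, 1 was called lower and 0 higher by limma, with 4 lower and 1 higher at p below 0.05 before adjustment (8.33% called and 41.7% below 0.05). The called gene was RNF145, an E3 ligase that targets SCAP, at 18.9 ± 0.351 FPKM in GM and 12.1 ± 1.01 FPKM in DM (SD, n = 3 in each), with a log2(FPKM + 1) difference of -0.60 and an adjusted p of 0.000188 from limma over all tested genes. This call was lost without the second DM culture (-0.54) and with TPM (-0.50) or median-of-ratios scaling (-0.54). The median log2(FPKM + 1) difference of the list was -0.02, beside -0.05 for all tested genes.

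SREBP-2 targets in sterol synthesis were mostly higher in DM. Of 22 genes 20 were tested, 12 were called higher and 0 lower by limma, with 16 higher and 2 lower at p below 0.05 before adjustment (60% called and 90% below 0.05), and the median log2(FPKM + 1) difference was 0.94. The squalene epoxidase gene SQLE went from 6.74 ± 0.594 to 35.9 ± 3.05 FPKM (SD, n = 3 in each), with an adjusted p of 5.04e-07 from limma. The isomerase IDI1 rose by 2.04, the lanosterol demethylase CYP51A1 by 1.75 and the synthase HMGCS1 by 1.65 on the log2(FPKM + 1) scale. ACAT2, which makes acetoacetyl-CoA, was at 24.0 FPKM in GM and 32.7 FPKM in DM, and its log2(FPKM + 1) difference of 0.43 was under the fold threshold although its adjusted p was 0.000684. This list was among those whose direction was known beforehand.

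SREBP-1 targets in fatty acid synthesis were called about as often as all tested genes. Of 21 such genes 17 were tested, 2 were called higher and 0 lower by limma, with 5 in each direction at p below 0.05 before adjustment (11.8% called and 58.8% below 0.05), and the median log2(FPKM + 1) difference was -0.03. The desaturase SCD went from 6.90 ± 0.573 to 13.5 ± 0.327 FPKM (SD, n = 3 in each) with an adjusted p of 2.59e-05 from limma. The elongase ELOVL5 rose by 0.59, just over the threshold, and was the call that dropped out without the third GM or the third DM culture. The fatty acid synthase FASN was at 9.31 FPKM in GM and 9.07 FPKM in DM. PGD, an enzyme of the pentose phosphate pathway that makes NADPH, was the most abundant uncalled gene, at 68.7 FPKM in GM and 56.2 FPKM in DM.

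**Figure D3:**
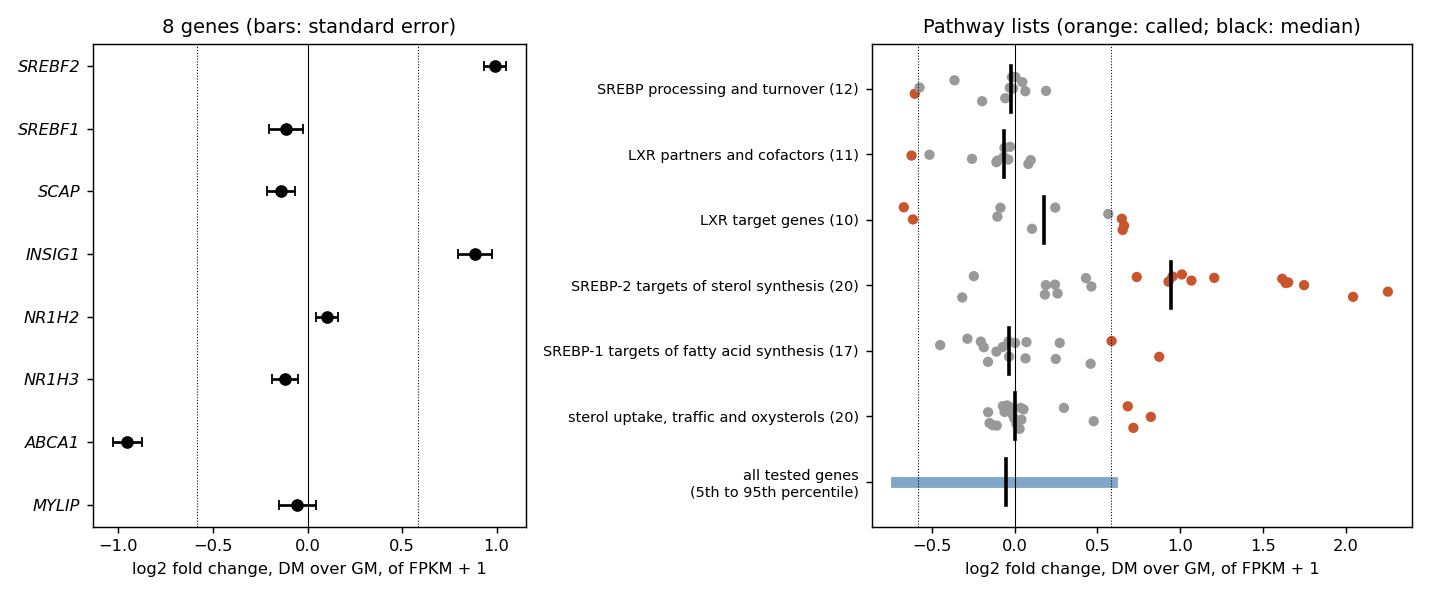
Difference between DM and GM in log2(FPKM + 1) (horizontal axes) for the 8 genes with standard errors (left) and for the tested genes of the 6 lists (right, called genes in orange, medians in black), with the 5th to 95th percentile of all tested genes as a blue bar and the 1.5-fold threshold dotted. SREBF2 lies at 0.99, INSIG1 at 0.89 and ABCA1 at -0.95, and the median of the SREBP-2 list at 0.94. The pseudocount shrinks differences of low genes most. The log2 ratios of the means were 1.05 for SREBF2, 1.15 for INSIG1 and -1.72 for ABCA1.

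Among partners and cofactors of LXR, 11 of 13 genes were tested, 1 was called lower and 0 higher by limma, with 3 lower and 0 higher at p below 0.05 before adjustment (9.09% called and 27.3% below 0.05). That call was lost without the third GM culture and with TPM or median-of-ratios scaling. The receptor partner RXRA was at 6.64 FPKM in GM and 5.39 FPKM in DM, and RXRB was at a ratio of 0.978 in DM over GM. MED1, a subunit of the Mediator complex and the most abundant uncalled gene, was at 22.4 FPKM in GM and 20.8 FPKM in DM.

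Of 18 other genes listed as LXR targets 10 were tested, and whether LXR acts on each of them in these cells was not tested. By limma 3 were called higher and 2 lower (50% called and 70% with p below 0.05 before adjustment). The split became 4 and 0 with TPM and 4 and 1 with median-of-ratios scaling, and the median log2(FPKM + 1) difference was 0.18. The lipid transporters ABCA3 and ABCA2 rose by 0.66 and 0.65 on that scale, and PFKFB3, a regulator of glycolysis, by 0.65. LPCAT3, a phospholipid acyltransferase, fell by 0.67, and NPC2, a lysosomal cholesterol carrier, fell by 0.61. With TPM scaling neither LPCAT3 (-0.58) nor NPC2 (-0.49) was called, and NPC2 was also lost without the first GM culture, without the first DM culture and with median-of-ratios scaling. SMPDL3A, a sphingomyelinase-like enzyme, was at 0.930 FPKM in GM and 1.86 FPKM in DM, just under the threshold at 0.57, and was called with either scaling, with smaller pseudocounts and without the third GM or the third DM culture. The adjusted p of the 5 called genes from limma ranged from 8.68e-05 for PFKFB3 to 0.000662 for ABCA2. ABCC1, the most abundant uncalled gene, was at 14.8 FPKM in GM and 15.9 FPKM in DM. ABCG1, a transporter that acts in cholesterol export beside ABCA1, was below the filter, at 0.221 FPKM in GM and 0.345 FPKM in DM with overlapping cultures.

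Of 23 genes of sterol uptake, traffic and oxysterol metabolism, 20 were tested, 3 were called higher and 0 lower by limma, with 5 higher and 2 lower at p below 0.05 before adjustment (15% called and 35% below 0.05). The endocytic receptor LRP1 went from 168.8 ± 17.6 to 298.3 ± 5.89 FPKM (SD, n = 3 in each; adjusted p 6.56e-05 from limma). CYP39A1, an oxysterol hydroxylase, rose by 0.72, and GRAMD1B, a sterol carrier between membranes, by 0.68 on the log2(FPKM + 1) scale. The median of the list was 0.00. CAV1, the coat protein of caveolae, was the most abundant uncalled gene, at 104.2 FPKM in GM and 145.7 FPKM in DM. With TPM scaling it was called (0.60).

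The profiles most like each member were found by Pearson correlation of log2(FPKM + 1) over the 6 input libraries, which fall into 2 groups of 3, so a gene that only separates GM from DM also scores high. For SREBF2 these were LTBP1, P4HA3 and PLPP1, each at r = 0.999, and 986 genes had r above 0.95. For INSIG1 they were COL5A3, DLK2 and RBAK (818 genes above 0.95), and for ABCA1 NOTCH1, CERK and SNRPD1 (1433 genes above 0.95). The uncalled members had few close profiles, from 3 genes above 0.95 for MYLIP, led by WFDC3, through 10 for SREBF1, led by ANKRD6, and 29 for SCAP, led by TMEM9, and for NR1H3, led by ZFHX3, to 38 for NR1H2, led by ZNF391.

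The m6A peaks were called on the pooled libraries of each condition, so each peak has 1 fold enrichment (IP over input) per condition and no error. SREBF1, SREBF2, SCAP, INSIG1, MYLIP, NR1H2 and NR1H3 had a peak in GM, and all 8 genes had 1 in DM, beside 70.9% of tested genes in GM and 78.7% in DM. The GM list held 11 peaks in 7 members, 9 of them in 3′UTRs, and the DM list 10 peaks in 8 members, 8 of them in 3′UTRs. Over all peaks, the 3′UTR held 42.6% in GM and 45.3% in DM. The median fold enrichment of the member peaks was 2.41 in GM and 3.68 in DM, beside 3.27 and 3.38 for all peaks.

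ABCA1 was the member with a peak listed in DM alone. This peak, at chr8:94603862-94605641 on the minus strand, was annotated to exon 48 of 50 and covered 450 bases of 3 exons up to the 3′ end of the transcript. Its fold enrichment was 12.2, above that of 94.6% of DM peaks, at a mean input level of 0.691 FPKM in DM. In GM no peak of any gene was listed within ABCA1, which does not show that m6A was absent there. A DM peak without a GM peak was found for 10.1% of all tested genes, for 11.2% of the genes called lower and for 10.3% of the genes called higher.

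NR1H3 carried the strongest peak of the group. In GM it had peaks of 5.73 (chr15:77137827-77138685) and 9.80 (chr15:77138744-77139490), and in DM a single peak of 28.8 (chr15:77137797-77139490), above 99.4% of DM peaks. The DM peak covered both GM peaks. The second GM peak was weakly supported, with a log10 false discovery rate of -1.40 against -71.2 for the first. With peaks kept only at a false discovery rate under 0.001, the GM peak of 9.80 dropped out. The pair then read 5.73 in GM and 28.8 in DM, a ratio of 5.03, though the overlap was 449 of the 1284 exonic bases of the DM peak. The GM peak of 9.80 shared 747 bases with the DM peak, and the ratio of that pair was 2.94.

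INSIG1 likewise had 2 GM peaks, of 2.08 and 2.07, and a single DM peak of 3.31 that overlapped both. The GM peaks covered 180 and 209 bases and the DM peak 685 bases, part of it in an exon upstream. Across all genes, 14.1% of DM peaks overlapped at least 2 GM peaks.

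The other members gave 7 pairs of exactly 1 GM and 1 DM peak. SREBF2 had a broad 3′UTR peak that was at 3.56 in GM and 2.84 in DM, a ratio of 0.798. Its second peak, at the 3′ end of the transcript, was at 1.74 over 61 bases in GM and at 4.42 over 210 bases in DM, a ratio of 2.54, though the overlap was 29.0% of the DM peak. SREBF1 had 1 weak peak in each condition, at 1.80 in GM and 1.82 in DM, a ratio of 1.01.

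SCAP went from 3.56 to 2.31, a ratio of 0.649, and NR1H2 from 6.45 to 4.16, a ratio of 0.645. Within the span of SCAP, 2 more peaks in each list were annotated to PTPN23. MYLIP had a peak annotated to exon 6 of 7 in GM and to the 3′UTR in DM, at 2.41 and 4.05, a ratio of 1.68. A second MYLIP peak, annotated to the 5′UTR, was at 2.06 in GM and 2.91 in DM, a ratio of 1.41. It was made of 3 exon blocks in GM and 4 in DM. Along the genome these reached from the 5′ end of the gene to 7686 bases (GM) and 6076 bases (DM) from the transcript end, so the signal is not confined to the 5′UTR. Both MYLIP peaks were longer in DM, at 1170 against 421 bases and 720 against 361 bases.

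Of these 7 pairs, 2 were over 1.5-fold higher in DM (the second of SREBF2 and the first of MYLIP) and 2 over 1.5-fold lower (SCAP and NR1H2), beside 14.2% and 10.8% of all 10239 pairs. When each peak had to share 50% of its bases with its partner, neither of the higher pairs was kept, and the one higher pair was NR1H3 with 9.80 in GM and 28.8 in DM. No replicate error exists for these ratios, and the m6A values were known when the members were chosen, so nothing is read from the counts.

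**Figure D4:**
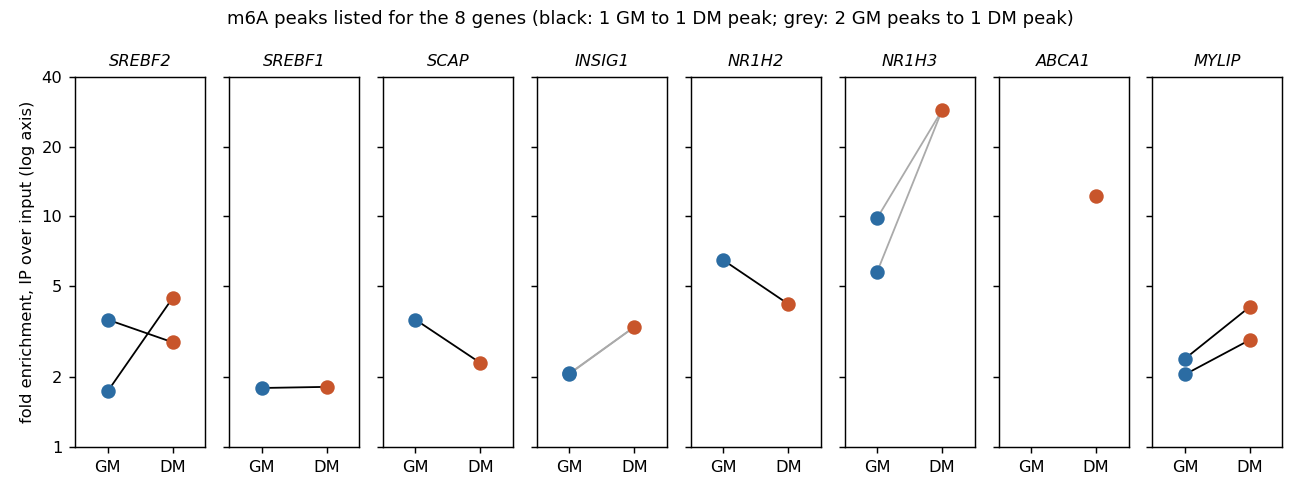
Fold enrichment of IP over input (vertical log axis) of each m6A peak of the 8 genes in GM (blue) and DM (orange), with black lines for pairs of 1 GM and 1 DM peak and grey lines where 1 DM peak overlaps 2 GM peaks. NR1H3 reaches 28.8 in DM, ABCA1 has a peak listed in DM alone, at 12.2, and the GM points of INSIG1 at 2.08 and 2.07 coincide.

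**Figure D5:**
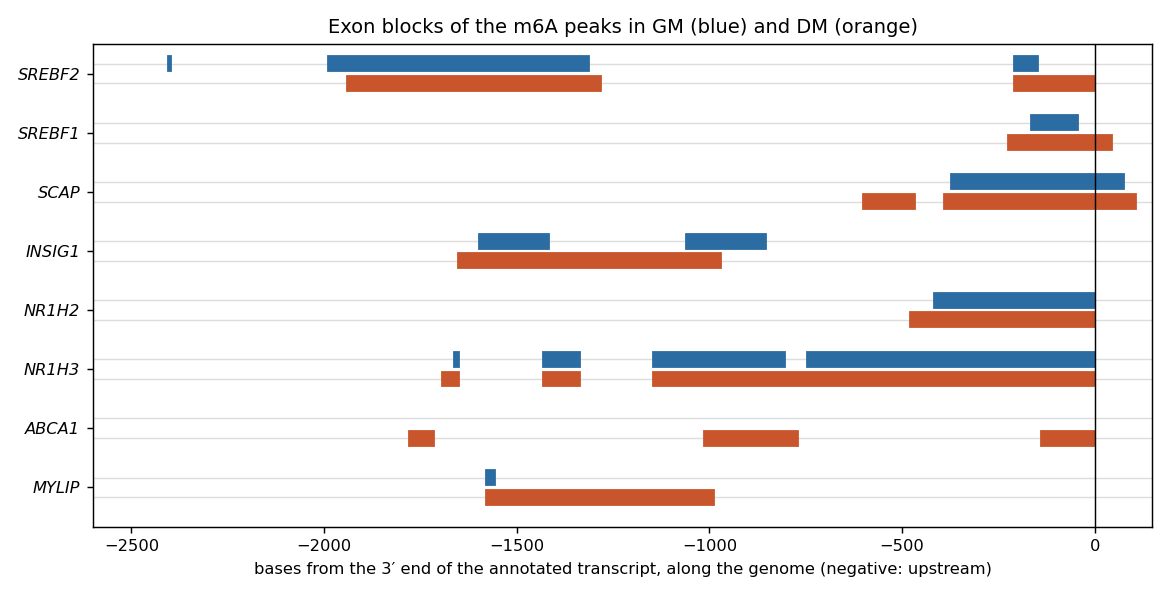
Exon blocks of the m6A peaks in GM (blue) and DM (orange) by distance in bases from the 3′ end of the annotated transcript along the genome (horizontal axis, negative upstream); blocks of INSIG1 and MYLIP farther upstream lie outside the plot. The DM blocks of NR1H3 cover 2 GM peaks, those of INSIG1 overlap 2 GM peaks in part, and those of ABCA1 have no listed GM counterpart.

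Levels and m6A were then set side by side. ABCA1, the member that was lower in DM, had a peak listed in DM alone, at a mean input level of 0.691 FPKM. SREBF2 and INSIG1, which were higher in DM, had peaks in both conditions. SCAP and NR1H2 had lower enrichment in DM by more than 1.5-fold with levels at ratios of 0.900 and 1.08. NR1H3 had the largest enrichment in DM at a level ratio of 0.904.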

How the data were processed

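The study measured input RNA and m6A in GM and DM cultures, 3 of each. The authors trimmed reads, aligned them with HISAT2 to ARS-UCD1.2 and computed the deposited FPKM with StringTie. The table used here holds the 6 input libraries. The authors called peaks with exomePeak on pooled libraries and annotated them with ChIPseeker. The deposited fold enrichment is the authors' ratio of IP over input. The deposited lists give a p-value per peak, at most 0.05, and score columns with log10 of the p-value and of the false discovery rate, as the authors' exomePeak run wrote them. Libraries were strand-specific, but whether counting and peak calling used strand is not given in the sources used here. No counts come with the FPKM, so the precision of a value is the spread of 3 libraries, which may be cultures of 1 animal. The columns of the authors' own comparisons and of annotation terms were not used.

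The study's methods name a count test. Since the table holds FPKM, limma 3.58.1 (R 4.3.3) was run on log2(FPKM + 1) with a variance trend, in 1 fit over the 12302 genes that averaged 0.5 FPKM or more, with Benjamini-Hochberg adjustment over all of them. A fold change on this scale understates that of low genes. Genes were called with the study's thresholds. The procedure was tested on simulated data. Peaks were paired in Python 3.11.15 with pandas 2.3.3 and numpy 2.4.6 by at least 1 shared exon base on the same strand, and a change in m6A is a ratio over 1.5 in a pair of 1 GM and 1 DM peak. Figures were drawn with matplotlib 3.10.9.

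The members and the lists of related and marker genes were chosen with earlier results of these data known. The genes named are the 8 members, and of each list up to 4 called genes with the largest change, the most abundant uncalled gene, and for each member up to 3 of the most similar profiles. INSIG2, FASN, RXRA, RXRB, ABCG1, SMPDL3A and NPC2 were named after their values were seen. List genes without a row in the table were not analysed here. The values of 2 genes that this rule would name are not reported here. No sequences are shown. Alternatives were other pseudocounts, filters, scalings, peak thresholds and overlap rules, a replicate block, and leaving out each library.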

Additional observations from a re-analysis of the deposited data

How the results depend on the processing

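The count of called members was 3 under each alternative, and the log2 fold changes of SREBF2 (0.95 to 1.15), INSIG1 (0.83 to 1.14) and ABCA1 (-1.58 to -0.92) kept their direction and call in each. The contrast was known when the members were chosen, so these repeats describe the processing and lend the calls no support. The uncalled members moved with TPM scaling to -0.01 (SREBF1), -0.03 (SCAP), -0.02 (NR1H3) and 0.23 (NR1H2), and SREBF1 to -0.02 without the third DM culture. MYLIP, uncalled throughout, reversed to 0.0197 with TPM scaling and ranged from -0.11 (without the second DM culture) to 0.0299 (without the third) with 1 library left out. The count of all called genes was 1461 and ranged from 1483 to 1519 when 1 library was left out. It was 2014 and 1746 with pseudocounts of 0.1 and 0.5, 1762 with TPM and 1397 with median-of-ratios size factors. Calls among genes of SREBP processing numbered 1, then 2 with a pseudocount of 0.1 or 0.5 (UBXN2A joined), 0 with TPM and with median-of-ratios size factors, and 0 to 2 with 1 library left out (0 without the second DM culture, 2 without the third GM or the first DM culture). Calls among LXR partners numbered 1, then 0 with TPM and size factors, and 0 to 1 with 1 library left out (0 without the third GM culture). Calls among SREBP-1 targets numbered 2, then 3 with a pseudocount of 0.1 (ACSS2 joined) and 3 with TPM (FADS1 joined). With 1 library left out they numbered 1 to 2 (1 without the third GM or the third DM culture). With TPM, calls numbered 13 among SREBP-2 targets (MVD joined) and 4 among genes of sterol uptake and traffic (CAV1 joined). Calls among LXR targets ranged from 4 to 6 with 1 library left out. The cause was not tested. Of 7 member m6A pairs, 1 was over 2-fold, that of SREBF2, in place of 4 over 1.5-fold. With an overlap of 50% the pairs were 2 lower and 1 higher, the latter NR1H3 in place of SREBF2 and MYLIP, and with the stricter false discovery rate 2 lower and 3 higher.

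The labels do not say whether GM and DM cultures of the same replicate number were paired. Deviations of same-numbered libraries correlated at -0.08, -0.12 and -0.21, which with 3 cultures per condition cannot settle it. With the number as a replicate block, 1473 genes were called, 3 of them members. The motif search listed for promoters and peaks was not run because no sequence was used here. FPKM without counts limits the precision of low genes such as ABCA1 in DM and MYLIP.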

Other observations

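The m6A of the list genes was read in the same way, as values with no error, beside 14.2% of all 10239 pairs over 1.5-fold higher in DM and 10.8% lower. Nothing particular to a list is read from these pairs. Of the SREBP-1 targets, the 3′UTR peak of FADS2, a fatty acid desaturase, was at 2.44 in GM and 17.0 in DM, and that of FASN at 14.2 in GM and 7.45 in DM. Their levels did not pass the fold threshold. Of 8 pairs among the sterol synthesis genes, 1 was over 1.5-fold, that of GGPS1 in the 5′UTR, at 5.44 in GM and 1.99 in DM. Of 25 pairs among LXR partners, 1 was over 1.5-fold, the 3′UTR peak of RXRB, at 8.46 in GM and 14.1 in DM. Among SREBP processing genes, GSK3A, a kinase whose phosphorylation marks nuclear SREBP for degradation, had a 5′UTR peak at 10.5 in GM and 3.51 in DM, and ERLIN1, an INSIG-associated membrane protein, a 3′UTR peak at 6.64 in GM and 9.98 in DM. Among genes of sterol traffic, GRAMD1A went from 7.15 to 4.45 and STARD3 from 4.44 to 2.61 between GM and DM. These genes were named after their values were seen.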
